A study of Mus musculus with 6 samples.

Results

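The enzymes described here build, extend and cap the glycans of mucins, the large glycoproteins that form the mucus of the colon. Members were taken by gene symbol alone, without using any measured value, from 13 families: Galnt, B3gnt, C1galt, Gcnt, B3galt, B4galt, B4galnt, Fut, St3gal, St6gal, St6galnac, St8sia and Chst. The rule found 90 of the 27546 rows of the expression table. Of these, 88 were protein coding and 2 were antisense RNAs, Galnt6os and St8sia3os. The symbol St6galnac2 stood for a pair of overlapping gene models, which were kept apart. The families reach beyond mucins, since some members act on glycolipids, on N-glycans or on the chondroitin, dermatan and keratan sulfate chains of proteoglycans, the glycosaminoglycans, and these are named as such below.

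The data were RNA-Seq of colon tissue from 3 Gm31629-/- mice and 3 WT littermates, which the study compared to learn what loss of Gm31629 does to the inflamed colon. All 6 mice were C57BL/6 by the labels (C57BL/6J in the methods), 8 weeks old, had drunk water with 3% dextran sulfate sodium (DSS), which damages the lining of the colon, for 7 days and were killed on day 8, so there was no group without colitis. Gm31629 is a long noncoding RNA, and its locus is deleted throughout the knockout mice rather than in 1 cell type. Gm31629 itself was not analysed here, so the genotypes were taken from the labels.

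Mucin-type O-glycosylation starts in the Golgi, where a GALNT enzyme attaches N-acetylgalactosamine (GalNAc) to serine or threonine. Galactose added to that sugar gives core 1, N-acetylglucosamine (GlcNAc) added to it gives core 3, and further GlcNAc branches turn them into core 2 and core 4. The chains are then lengthened and capped with fucose, sialic acid, sulfate or another GalNAc, and core 3 glycans are a known hallmark of colonic mucin.

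The 6 libraries held 18002800 to 18793200 mapped fragments by an estimate from the table, so depth was close to even. WT libraries had 19938 to 20118 genes above 0 and Gm31629-/- libraries 22456 to 23600. Gm31629-/- mouse 1 carried Y-chromosome transcripts and almost no Xist, whereas the other 5 showed the reverse, although the methods describe male mice. Gm31629-/- mouse 3 carried genes of pancreatic acinar cells at a summed 2305 FPKM, against 26.4 to 53.8 FPKM in the others. In those others Cela1 alone, at 25.6 to 53.7 FPKM, made up nearly all of the sum. FPKM is a fragment count divided by transcript length and library depth, so levels of different genes can be compared.

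The tissue make-up of the groups differed as well, and this touches every result below. The summed level of 12 smooth muscle markers was 24.5 to 46.9 FPKM in WT and 1456 to 2379 FPKM in Gm31629-/- libraries, and all 12 were higher by the test described below. Fibroblast markers summed to 27.2 to 45.9 FPKM in WT and 411 to 948 FPKM in Gm31629-/- (10 of 10 higher), and endothelial markers to 3.34 to 8.51 and 70.6 to 133 FPKM (11 of 11). Markers of enteric neurons and glia summed to 2.83 to 5.42 and 41.2 to 142 FPKM (10 of 11 tested were higher), with Elavl4 listed at 0 in all WT libraries. Macrophage markers summed to 74.1 to 84.2 FPKM in WT and 386 to 829.5 FPKM in Gm31629-/- (9 of 10 higher), and B and plasma cell markers to 15.9 to 23.1 and 241 to 445 FPKM (10 of 10). The 15 colon epithelium markers summed to 12829.9 to 14096 FPKM in WT and to less, 8166 to 9709 FPKM, in Gm31629-/-, with 6 lower, 0 higher and 9 not called. The part of these shifts in the enzyme results was not tested, and in such bulk tissue fewer cells of a type and less RNA per cell cannot be told apart. Whether the samples of the groups held unlike parts of the colon wall was not tested, and cannot be told apart from genotype here.

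**Figure D1:**
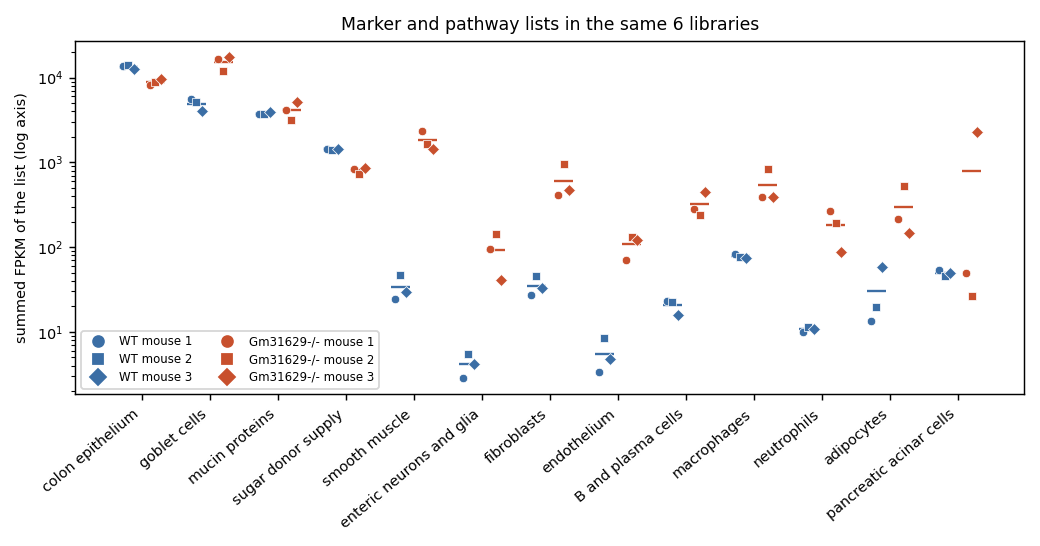
Summed FPKM (log axis) of marker and pathway lists in each of the 3 WT (blue) and 3 Gm31629-/- (orange) libraries, with 1 symbol per mouse and the group mean as a bar. Smooth muscle markers summed to 24.5 to 46.9 FPKM in WT and 1456 to 2379 FPKM in Gm31629-/- libraries, while colon epithelium markers summed to 12829.9 to 14096 and 8166 to 9709 FPKM.

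Of the 90 members, 62 had a mean of at least 0.5 FPKM over the 6 libraries and were tested. In Gm31629-/- colon 19 were higher and 15 were lower at an adjusted p under 0.05 (limma on log2(FPKM + 1), Benjamini-Hochberg over 14657 genes), and 28 were not called. Among all genes tested 28.9% were higher and 14.6% lower, and the members stood at 30.6% and 24.2%. With a log2 difference beyond 1 as well, 17 members were higher (27.4%, against 18.4% of all genes) and 6 were lower (9.68%, against 4.64%). When libraries were scaled to the epithelial markers, 26 members were higher (41.9%) and 6 were lower (9.68%), where 41.8% of all genes were higher and 4.25% lower. The split between directions thus depended on the scale, for all genes as for the members, while no called member changed direction. The median log2 difference was 0.20 over the members and 0.15 over all genes.

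By WT level the calls were spread as follows. Of the 19 higher members, 13 had a WT mean under 1 FPKM and 2 a WT mean of at least 10 FPKM. Of the 15 lower members, 0 had a WT mean under 1 FPKM and 13 had one of at least 10 FPKM. A member that is scarce in WT enters the test only if it is high in Gm31629-/- mice, and can then hardly be lower, so the filter and the log2(FPKM + 1) scale fix much of this split and nothing is read from it. In 41 members the 2 groups did not overlap (66.1%), against 57.8% of all genes tested, with 24 higher and 17 lower. With 3 mice in each group the exact permutation test of a single gene cannot go below 0.10, and the p-values measure the spread between these mice.

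**Figure D2:**
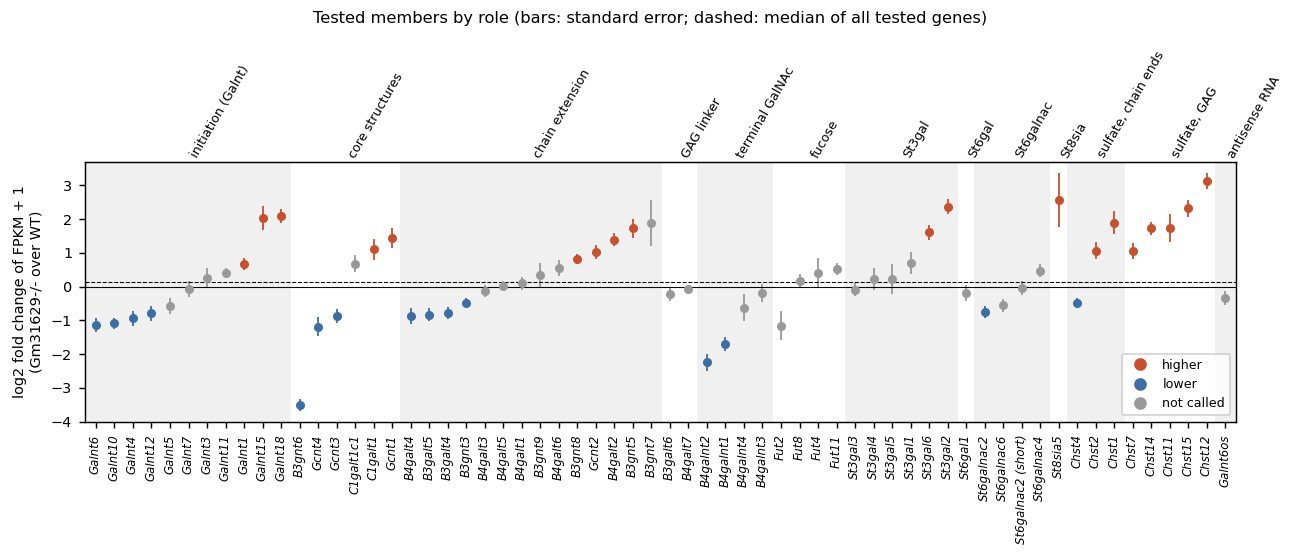
Log2 difference of FPKM + 1 (Gm31629-/- minus WT) for each of the 62 tested members, grouped by role, with the standard error as a bar, the median of all tested genes (0.15) as a dashed line and colour for the call. B3gnt6 at -3.51 and Chst12 at 3.14 are the ends of the range, all 4 enzymes of terminal GalNAc lie below 0 and all 5 tested glycosaminoglycan sulfotransferases lie above 1.

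The summed level of all 90 members was 1950.5 ± 83.3 FPKM in WT and 1482 ± 115 FPKM in Gm31629-/- mice (mean ± SD over 3 mice, as throughout). In WT colon 4 enzymes made up 49.9% of that sum. These were B4galnt2 (14.5%), B3gnt3 (13.0%), St6galnac6 (11.7%) and B3galt5 (10.7%), followed by Fut2 (5.41%). In Gm31629-/- colon the order began with B3gnt3, St6galnac6, B3galt5, St3gal4 and B3gnt7, and B4galnt2 had moved from rank 1 to rank 7 (4.10%).

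The steepest loss lay at the branch point between O-glycan cores. B3gnt6, the core 3 synthase (chromosome 7, 98192417 to 98199481, minus strand, GRCm38), stood at 20.1, 17.0 and 19.6 FPKM in the WT mice and at 1.10, 0.594 and 0.574 FPKM in the Gm31629-/- mice. The groups were far apart, and the mean fell to 0.04 times its WT level, from 18.9 ± 1.66 to 0.756 ± 0.298 FPKM (log2 difference -3.51, SE 0.18, adjusted p = 0.000111). The call held without each of the 6 libraries in turn, and the difference was -3.19 after epithelial scaling.

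C1galt1, which makes core 1 and so acts on the same GalNAc, went the opposite way. It measured 20.8, 17.7 and 9.19 FPKM in WT and 44.1, 27.4 and 31.9 FPKM in Gm31629-/- mice (log2 difference 1.11, SE 0.31, adjusted p = 0.0257). The groups did not overlap, but the call was lost without Gm31629-/- mouse 1 (0.93, adjusted p = 0.0653), Gm31629-/- mouse 3 (1.15, adjusted p = 0.062) or WT mouse 3 (0.78, adjusted p = 0.0606). C1galt1c1, the chaperone Cosmc that C1galt1 needs to fold, measured 20.1, 18.4 and 11.3 FPKM in WT and 33.0, 22.8 and 24.5 FPKM in Gm31629-/- mice, without overlap and without a call (0.68, SE 0.25, adjusted p = 0.0592). Within each mouse the level of C1galt1 was 0.47 to 1.04 times that of B3gnt6 in WT and 40.1 to 55.7 times in Gm31629-/- colon. The 2 levels were close in WT mice 1 and 2, C1galt1 was the lower one in WT mouse 3, and it was far above B3gnt6 in every Gm31629-/- mouse. These are RNA levels, and neither enzyme activity nor glycans were measured. This ratio, like those given below, also depends on the mix of cells in the tissue, which differed between the groups. That part was not tested.

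The branching enzymes split too. Gcnt1, the core 2 enzyme of many tissues, measured 4.46, 5.47 and 2.94 FPKM in WT and 19.5, 11.3 and 10.3 FPKM in Gm31629-/- mice (log2 difference 1.45, SE 0.29, adjusted p = 0.00691). Gcnt3, the mucin-type enzyme that forms both core 2 and core 4, was more abundant and fell, from 61.2, 82.2 and 64.4 to 48.4, 31.2 and 33.6 FPKM (-0.87, SE 0.21, adjusted p = 0.0141). Gcnt4, another core 2 enzyme, fell from 3.54 ± 1.32 to 0.985 ± 0.446 FPKM (-1.18, SE 0.27, adjusted p = 0.012).

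All 3 calls held without each library in turn. After epithelial scaling, which raised every difference, Gcnt1 stood at 1.85, Gcnt4 at -0.89 and Gcnt3 at -0.43. Gcnt4 stayed called and Gcnt3 did not (adjusted p = 0.174), while Gcnt1, a higher member, could hardly lose its call. Within each mouse Gcnt1 stood at 0.0457 to 0.0729 times the level of Gcnt3 in WT and at 0.307 to 0.404 times in Gm31629-/- colon. Gcnt3 remained the more abundant of the pair in every mouse. Of the 6 core members, 2 were higher, 3 were lower and 1 was not called, and in all 6 the groups did not overlap. Of all genes tested 28.9% were higher and 14.6% lower, and in 57.8% the groups did not overlap.

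**Figure D3:**
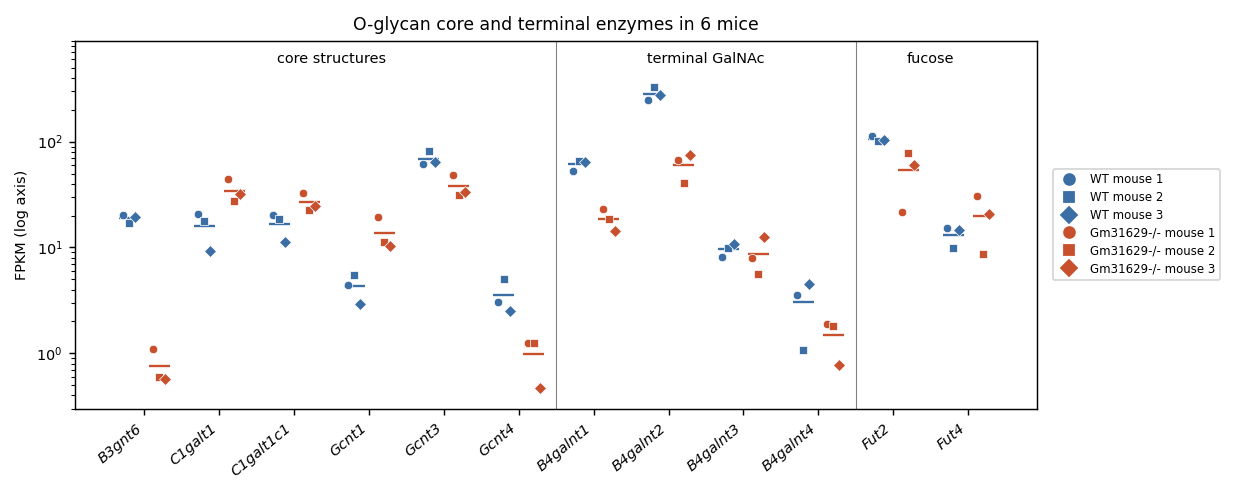
FPKM (log axis) of enzymes that make O-glycan cores, add terminal GalNAc or add fucose, in 3 WT (blue) and 3 Gm31629-/- mice (orange), with 1 symbol per mouse and the group mean as a bar. B3gnt6 lies at 17.0 to 20.1 FPKM in WT and 0.574 to 1.10 FPKM in Gm31629-/- mice, B4galnt2 at 246 to 327 and 40.7 to 74.8 FPKM, while the groups overlap for B4galnt3, B4galnt4 and Fut4.

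Terminal GalNAc enzymes came next in size. B4galnt2, which makes the Sda (Cad) antigen of the distal gut by adding GalNAc to a sialylated galactose, was the most abundant member in WT, at 246, 327 and 277 FPKM against 66.8, 40.7 and 74.8 FPKM in Gm31629-/- mice. The groups did not overlap and the mean fell 4.66-fold (log2 difference -2.24, SE 0.25, adjusted p = 0.000832). B4galnt1, the GM2/GD2 synthase of gangliosides, fell from 52.9, 66.0 and 64.3 to 23.0, 18.4 and 14.2 FPKM (-1.69, SE 0.20, adjusted p = 0.00106).

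Both calls held without each library in turn, and both held after epithelial scaling (-1.79 and -1.25). The other pair of the family, B4galnt3 and B4galnt4, makes LacdiNAc, a GalNAc on GlcNAc. B4galnt3 measured 8.17 to 10.8 FPKM in WT and 5.62 to 12.6 FPKM in Gm31629-/- mice (-0.18, SE 0.27, adjusted p = 0.608), and turned to 0.22 after epithelial scaling. B4galnt4 measured 1.07 to 4.56 and 0.777 to 1.89 FPKM (-0.62, SE 0.39, adjusted p = 0.236, and -1.04 with adjusted p = 0.0358 without WT mouse 2). B4galnt2 stood at 25.6 to 33.1 times the level of B4galnt3 in WT mice and at 5.95 to 8.39 times in Gm31629-/- mice.

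The initiating enzymes, 17 Galnt genes of which 11 were tested, gave 3 higher, 4 lower and 4 not called (27.3% and 36.4%, against the 28.9% and 14.6% of all genes). Those that fell were all well expressed in WT colon, as were Galnt1, which rose, and Galnt3 and Galnt7, which were not called. Galnt6 fell from 46.3 ± 7.8 to 20.6 ± 4.07 FPKM without overlap (log2 difference -1.14, SE 0.20, adjusted p = 0.00443), and Galnt10 from 44.4, 42.9 and 45.8 to 22.4, 16.3 and 23.1 FPKM (-1.09, SE 0.17, adjusted p = 0.00262). Both held without each library in turn and after epithelial scaling (-0.70 and -0.65).

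Galnt4 fell from 43.9 ± 5.52 to 22.9 ± 6.57 FPKM (-0.94, adjusted p = 0.0155), a call lost without WT mouse 2 (adjusted p = 0.0545) or WT mouse 3 (adjusted p = 0.0583). Its exons share 8.25% of their bases with a gene on the same strand. Galnt12, the most abundant Galnt, fell from 74.5 ± 3.08 to 44.0 ± 13.2 FPKM (-0.79, adjusted p = 0.0243), a call lost without Gm31629-/- mouse 3 (adjusted p = 0.0632) or any 1 WT mouse (adjusted p 0.0668 to 0.0758). Neither stayed called after epithelial scaling.

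The 3 Galnt genes that rose were Galnt18, Galnt15 and Galnt1. Galnt18 went from 0.210, 0.496 and 0.207 to 4.52, 5.81 and 3.51 FPKM (log2 difference 2.09, SE 0.20, adjusted p = 0.000561), and Galnt15 from 0.0256, 0.114 and 0.143 to 7.25, 2.21 and 2.41 FPKM (2.04, SE 0.36, adjusted p = 0.00452). Galnt18 and Galnt15 were scarce in WT and passed the filter only through the Gm31629-/- libraries, which fixed their direction. The muscle, stromal, neural and immune cell markers given above were also higher in the Gm31629-/- group, and their part was not tested. Galnt1, a broadly expressed initiator, rose from 12.2 ± 2.18 to 19.9 ± 2.61 FPKM (0.67, adjusted p = 0.0214), and lost its call without Gm31629-/- mouse 1, WT mouse 2 or WT mouse 3 (adjusted p up to 0.084). Galnt3, Galnt5, Galnt7 and Galnt11 were not called. Summed over the 17 genes, the level was 268 ± 17.1 FPKM in WT and 188 ± 25.6 FPKM in Gm31629-/- colon.

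The enzymes that lengthen the chains gave 4 higher, 4 lower and 6 not called among 14 tested, or 28.6% in each direction, where 28.9% of all genes were higher and 14.6% lower. B3galt5, which adds the galactose of type 1 chains, fell from 222, 225 and 179 to 106, 101 and 148 FPKM (log2 difference -0.83, SE 0.19, adjusted p = 0.0135). B3gnt3, which extends core 1, fell from 253 ± 20.4 to 181 ± 11.2 FPKM (-0.48, SE 0.14, adjusted p = 0.0302). Both were among the most abundant members, yet both calls depended on single mice: B3galt5 was lost without WT mouse 1 (adjusted p = 0.0535), and B3gnt3 without Gm31629-/- mouse 1 or any 1 WT mouse (adjusted p 0.0635 to 0.116).

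After epithelial scaling B3galt5 stood at -0.37 and B3gnt3 at -0.03, neither called. B4galt4 fell from 20.2 ± 1.46 to 11.0 ± 4.03 FPKM (-0.86, adjusted p = 0.0237), and lost its call without Gm31629-/- mouse 2 or any 1 WT mouse (adjusted p 0.0596 to 0.0891). B3galt4, which acts on gangliosides, fell from 10.1 ± 0.473 to 5.49 ± 1.16 FPKM (-0.78, adjusted p = 0.00998). None of these 4 reached a log2 difference of -1.

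On the higher side, B3gnt5, which starts the lacto-series glycolipids, rose from 2.66, 1.07 and 0.962 to 8.51, 5.65 and 7.56 FPKM (log2 difference 1.73, SE 0.28, adjusted p = 0.0033). Gcnt2, which branches polylactosamine into I antigen, rose from 4.93 ± 0.89 to 11.3 ± 2.86 FPKM (1.04, adjusted p = 0.00762). B4galt2 rose from 0.115 ± 0.015 to 1.97 ± 0.659 FPKM (1.39, adjusted p = 0.0017), and shares 28.2% of its exon bases with a gene on the same strand, so its reads are uncertain. B3gnt8 rose from 0.129 ± 0.0407 to 0.996 ± 0.172 FPKM (0.82, adjusted p = 0.00471). B4galt2 and B3gnt8 passed the filter only through the Gm31629-/- libraries, which fixed their direction.

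B3gnt7, which extends polylactosamine and keratan sulfate, was split by mouse. It measured 34.3, 11.7 and 20.4 FPKM in WT and 25.7, 131 and 139 FPKM in Gm31629-/- mice, so that Gm31629-/- mouse 1 lay within the WT range and the other two lay far above it. The difference was 1.89 (SE 0.67, adjusted p = 0.0564), and 2.67 (adjusted p = 0.00348) without Gm31629-/- mouse 1, the library with Y-chromosome transcripts. The 5 other members without a call, B4galt1, B4galt3, B4galt5, B4galt6 and B3gnt9, overlapped between the groups. B3galt6 and B4galt7, which build the linker of glycosaminoglycans rather than O-glycans, differed by -0.22 (adjusted p = 0.395) and -0.08 (adjusted p = 0.647), with SE 0.20 and 0.14.

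No fucosyltransferase was called among the 4 tested of 8, where 28.9% of all genes were higher and 14.6% lower. Fut2, which makes the H antigen of secreted mucins, was the most abundant, at 112, 102 and 103 FPKM in WT and 21.5, 78.6 and 60.6 FPKM in Gm31629-/- mice. Every Gm31629-/- mouse lay below every WT mouse, but the spread among the former was wide (log2 difference -1.15, SE 0.43, adjusted p = 0.067). Without Gm31629-/- mouse 1 the difference was smaller and called (-0.60, adjusted p = 0.03), and without Gm31629-/- mouse 2 it was -1.52 (adjusted p = 0.0273).

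Fut4, a Lewis x enzyme, differed by 0.42 (SE 0.42, adjusted p = 0.446) with overlapping groups, and by 0.90 (adjusted p = 0.035) without Gm31629-/- mouse 2. Fut8, which adds core fucose to N-glycans, differed by 0.18 (SE 0.20, adjusted p = 0.509), and Fut11 by 0.52 (SE 0.18, adjusted p = 0.0575).

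Sialyltransferases gave 3 higher, 1 lower and 8 not called among 12 tested of 20, and the most abundant of them were not called. St3gal4, which caps galactose on type 2 chains, measured 106, 64.0 and 85.6 FPKM in WT and 157, 68.6 and 86.3 FPKM in Gm31629-/- mice (log2 difference 0.22, SE 0.33, adjusted p = 0.609). St6galnac6, known for disialyl Lewis a in colon, measured 224, 245 and 218 FPKM in WT and 133, 142 and 201 FPKM in Gm31629-/- mice, without overlap but narrowly without a call (-0.55, SE 0.19, adjusted p = 0.0512). It was called without Gm31629-/- mouse 3 (-0.73, adjusted p = 0.0128).

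St6galnac2, which sialylates the innermost GalNAc, fell from 3.33, 4.49 and 4.63 to 2.04, 1.69 and 2.45 FPKM (-0.75, SE 0.18, adjusted p = 0.0155), a call lost without WT mouse 2 (adjusted p = 0.0568) or WT mouse 3 (adjusted p = 0.0698). The short overlapping model of the same symbol measured 0.316 to 0.891 FPKM in WT and 0.290 to 0.807 FPKM in Gm31629-/- mice and was not called (-0.03, adjusted p = 0.917). St6galnac4 differed by 0.48 (SE 0.19, adjusted p = 0.0745), and St6gal1, the main enzyme of terminal sialic acid on N-glycans, by -0.18 (SE 0.23, adjusted p = 0.556).

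Of the 3 sialyltransferases that rose, St3gal2 and St8sia5 were scarce in WT and St3gal6 was not. St3gal2 and St8sia5 passed the filter only through the Gm31629-/- libraries, which fixed their direction. St3gal2, which sialylates core 1 and gangliosides, went from 0.0965, 0.507 and 0.285 to 4.92, 7.77 and 4.64 FPKM (log2 difference 2.37, SE 0.23, adjusted p = 0.000535), and St3gal6 from 5.05 ± 1.27 to 17.6 ± 4.33 FPKM (1.61, SE 0.23, adjusted p = 0.00215). Both held without each library in turn.

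St8sia5, which adds further sialic acid to gangliosides, was at 0.129, 0.0795 and 0.0507 FPKM in WT and at 2.15, 2.02 and 26.6 FPKM in Gm31629-/- mice. Its highest value came from Gm31629-/- mouse 3, the library with the pancreatic genes. The difference was 2.56 (SE 0.80, adjusted p = 0.0366) with all mice and 1.51 (adjusted p = 0.000951) without that library, and the call was lost without any 1 WT mouse (2.54 to 2.59, adjusted p 0.0883 to 0.105).

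Sulfotransferases gave 7 higher and 1 lower of 8 tested among 13 Chst genes (87.5% and 12.5%, against 28.9% and 14.6% of all genes). The 7 were scarce in WT. Chst1, Chst2 and Chst7 had WT means under 0.5 FPKM and passed the filter only through the Gm31629-/- libraries, which fixed their direction. The share of 87.5% rests in part on this selection, so nothing is read from it. Chst4, which sulfates GlcNAc, was the one that was abundant in WT and the one that fell, from 38.6, 28.4 and 33.7 to 24.5, 24.0 and 23.0 FPKM (log2 difference -0.47, SE 0.15, adjusted p = 0.0418). This call was close to the threshold, was lost without any library except WT mouse 2 (adjusted p 0.0636 to 0.14), and stood at -0.03 after epithelial scaling.

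The 5 tested enzymes of chondroitin and dermatan sulfate all rose, where 28.9% of all genes were higher. Chst7 passed the filter only through the Gm31629-/- libraries, which fixed its direction. Chst13, which fell below the filter, was lower in every Gm31629-/- mouse than in every WT mouse. Chst12, a chondroitin 4-O-sulfotransferase, showed the largest positive difference of the members tested, from 0.641, 0.823 and 0.586 to 18.1, 15.1 and 9.52 FPKM (log2 difference 3.14, SE 0.24, adjusted p = 0.000281). Chst15, which makes the doubly sulfated chondroitin sulfate E, rose from 0.864, 1.04 and 0.914 to 5.66, 11.9 and 9.46 FPKM (2.32, SE 0.25, adjusted p = 0.000799). Chst14, the dermatan 4-O-sulfotransferase, rose from 0.573 ± 0.132 to 4.29 ± 1.06 FPKM (1.73, SE 0.19, adjusted p = 0.000875). These groups lay far apart.

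Chst11, a second chondroitin 4-O-sulfotransferase, rose from 0.421, 1.06 and 1.14 to 2.17, 9.31 and 6.13 FPKM (1.74, SE 0.42, adjusted p = 0.0152), and was lost without Gm31629-/- mouse 3 (1.64, adjusted p = 0.0521) or WT mouse 1 (1.55, adjusted p = 0.0571). Chst7 rose from 0.0333 ± 0.0385 to 1.22 ± 0.613 FPKM (1.06, adjusted p = 0.0103). Summed over its 7 listed genes the chondroitin and dermatan group stood at 3.72 ± 0.296 FPKM in WT and 35.5 ± 7.19 FPKM in Gm31629-/- mice.

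The remaining pair, Chst1 of keratan sulfate (1.90, SE 0.35, adjusted p = 0.00543) and the GlcNAc 6-O-sulfotransferase Chst2 (1.07, adjusted p = 0.0109), rose from 0.471 ± 0.0921 to 4.93 ± 2.64 FPKM and from 0.109 ± 0.0448 to 1.41 ± 0.743 FPKM. Both passed the filter only through the Gm31629-/- libraries, which fixed their direction. The higher Chst genes thus act on proteoglycans for the most part. Fibroblast, smooth muscle, endothelial, neural, macrophage, and B and plasma cell markers were also higher in the Gm31629-/- group. The part of these cells was not tested.

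**Figure D4:**
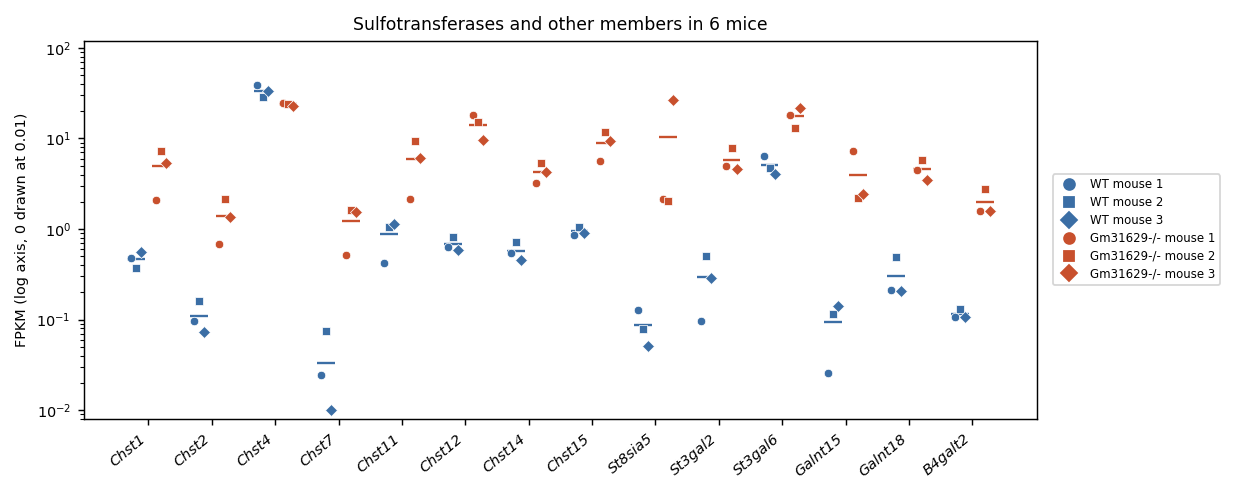
FPKM (log axis, a value of 0 drawn at 0.01) of the 8 tested sulfotransferases and 6 other members that were higher in Gm31629-/- mice, with 1 symbol per mouse, WT in blue, Gm31629-/- in orange and the group mean as a bar. Chst4 is the abundant sulfotransferase in WT (28.4 to 38.6 FPKM) and the one that was lower, and the St8sia5 value of Gm31629-/- mouse 3 (26.6 FPKM) lies far above those of the other mice.

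The start sites of a strongly lower and a strongly higher member are shown to compare the sequence before them, since B4galnt2 and Chst12 moved in opposite directions. Each line is the 250 bases before the annotated transcription start of RefSeq on GRCm38.p6, read 5′ to 3′ on the strand of the gene, with the GC box (GGGCGG, searched on both strands) in capitals. B4galnt2 lies at chr11:95914872-95915121 on the minus strand and Chst12 at chr5:140505359-140505608 on the plus strand.
B4galnt2: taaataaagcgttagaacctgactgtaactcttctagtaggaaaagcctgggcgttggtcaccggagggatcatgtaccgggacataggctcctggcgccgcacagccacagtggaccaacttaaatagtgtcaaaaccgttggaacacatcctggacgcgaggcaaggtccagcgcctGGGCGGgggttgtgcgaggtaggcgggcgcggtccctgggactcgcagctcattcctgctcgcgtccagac
Chst12: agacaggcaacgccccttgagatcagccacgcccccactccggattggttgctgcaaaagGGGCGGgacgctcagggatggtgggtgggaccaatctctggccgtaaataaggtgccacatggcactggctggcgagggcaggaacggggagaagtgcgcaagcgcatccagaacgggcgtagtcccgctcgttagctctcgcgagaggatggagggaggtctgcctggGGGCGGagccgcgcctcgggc
The B4galnt2 window holds 1 GC box and the Chst12 window 2, and their GC contents were 58.4% and 65.6%. A window was found for 68 of the 90 members, not including B3gnt6 or B4galnt1. The GC box occurred in 53.9% of the 89 member windows and in 32.7% of all 32851 windows, in 6 of 13 windows of lower members and in 13 of 21 of higher members. A TATA box (TATAAA, both strands) occurred in 1.12% of member windows and 12.4% of all windows. These shares describe the letters of the windows and say nothing of a factor that binds there.

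The 28 members below the filter had little RNA, in all 1.82 to 2.20 FPKM per WT mouse and 6.67 to 9.47 FPKM per Gm31629-/- mouse. In 21 of them every Gm31629-/- mouse lay above every WT mouse, in 1 every one lay below, and in 6 the groups overlapped. The groups thus did not overlap in 78.6% of these members and in 27.6% of all 12889 genes below the filter (3225 of them above and 329 below), to which the members were not matched by level. The 1 below was Chst13, a chondroitin 4-O-sulfotransferase, with 25, 7 and 14 fragments in WT and 1, 1 and 1 in Gm31629-/- mice. Polysialic acid synthase St8sia4 had 12, 5 and 0 fragments in WT and 125, 168 and 106 in Gm31629-/- mice, and Fut10 had 5, 4 and 0 against 94, 98 and 71.

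Galnt13, Galnt14, B3galt1, St6galnac5, St8sia3, St8sia3os and Galnt2 were listed at 0 in all 3 WT libraries. For Galnt2, a widely expressed initiator, 3854 of the 4282 exon bases are shared with a gene on the same strand, and it had 0 fragments in WT and 2, 1 and 1 in Gm31629-/- mice, so its level could not be read. For B3gnt2 the shared portion was 65.5%. In all, 36 members overlapped an exon of another gene on either strand, 34 of them on the opposite strand, which a library that does not mark strand cannot separate.

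Genes that feed these enzymes were set beside them. Of 26 tested genes that make or carry the sugar and sulfate donors, 2 were higher, 13 were lower and 11 were not called (percentages of all genes as above). Their median log2 difference was -0.50, and that of the 15 colon epithelium markers was -0.50 too. The part of the lower epithelial level in this fall was not tested. The most abundant of them, Papss2, was among those that fell. Papss2, which makes the sulfate donor PAPS, went from 169, 215 and 227 to 64.2, 24.5 and 41.6 FPKM (-2.29, SE 0.33, adjusted p = 0.00211). Gmds, the first enzyme towards GDP-fucose, went from 149, 143 and 148 to 33.0, 43.3 and 39.5 FPKM (-1.91, SE 0.15, adjusted p = 0.000281).

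Slc35c1, the Golgi GDP-fucose carrier, fell by 1.27 on the log2 scale (SE 0.15, adjusted p = 0.00116). Genes of donor supply that fell thus included both of these fucose genes, beside 4 tested fucosyltransferases of which none was called. Fut2, the most abundant of the 4, was nonetheless lower in every Gm31629-/- mouse than in every WT mouse.

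The mucins that carry the glycans were tested as well, and 3 of 6 were called, where 28.9% of all genes were higher and 14.6% lower. Muc2, the gel-forming mucin of the colon, measured 1338, 1154 and 1399 FPKM in WT and 1074, 992 and 1188 FPKM in Gm31629-/- mice, with overlapping groups (log2 difference -0.26, SE 0.18, adjusted p = 0.272). Of the 6 mucin genes tested, Muc1 was higher (2.40, SE 0.29, adjusted p = 0.00114), Muc3a (-1.38, SE 0.35, adjusted p = 0.0187) and Muc4 (-0.62, SE 0.20, adjusted p = 0.04) were lower, and Muc2, Muc3 and Muc13 were not called. Goblet cell genes split, with 4 higher, 5 lower and 3 not called of 12, and summed to 4079 to 5584 FPKM in WT and 11887 to 17627 FPKM in Gm31629-/- mice.

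Among 13 tested glycan enzymes outside the 13 families, 4 were higher and 3 were lower (percentages of all genes as above). The higher ones were Ggta1, the alpha-galactosyl enzyme (2.75, adjusted p = 0.00076), B3galnt1, the globoside synthase (2.45, adjusted p = 0.00111), Gal3st2b (2.26, adjusted p = 0.00357) and the sialidase Neu3 (2.01, adjusted p = 0.00321), with WT means of 0.0718 to 0.721 FPKM. Ggta1, B3galnt1 and Neu3 passed the filter only through the Gm31629-/- libraries, which fixed their direction. A4gnt caps core 2 mucin glycans of the stomach and duodenum with GlcNAc. It measured 30.2, 11.7 and 23.4 FPKM in WT and was listed at 0 in all 3 Gm31629-/- libraries (adjusted p = 0.000242). A4gnt thus passed the filter only through WT. Gal3st1, the sulfatide synthase, fell by 1.71 on the log2 scale (SE 0.37, adjusted p = 0.0103), Siae, a sialic acid esterase, fell by 0.45 (SE 0.15, adjusted p = 0.0498), while Neu1 and Gal3st2 were not called.

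Scaling each library to the 15 epithelial markers set the members against the mean of these markers rather than against all RNA. The markers themselves differed by -1.63 to 0.51 on the log2 scale. Which lower members stay called therefore depends on the markers chosen, and other choices were not tried. It moved the median of all genes from 0.15 to 0.49 and that of the members from 0.20 to 0.57. Of the 34 called members, 25 stayed called. The scaling divided Gm31629-/- libraries by 0.7935 to 0.8994 and WT libraries by 1.0769 to 1.2461, and so raised every difference. A higher member could thus hardly lose its call. Only the 15 lower ones could readily do so, and 6 of them stayed called. Those that stayed lower were B3gnt6, B4galnt2, B4galnt1, Gcnt4, Galnt6 and Galnt10, and the 9 that lost their call were all lower members. Median-ratio scaling, which sets the typical gene near 0, moved the median of all genes to -0.05 and gave 17 higher and 18 lower members (27.4% and 29.0%), where 24.7% of all genes were higher and 24.8% lower. C1galt1 (0.86, adjusted p = 0.0617) and Galnt1 (0.42, adjusted p = 0.0795) lost their calls on that scale. Fut2 (-1.41, adjusted p = 0.0382), Galnt5 (-0.76, adjusted p = 0.0282) and St6galnac6 (-0.81, adjusted p = 0.0238) gained one.

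**Figure D5:**
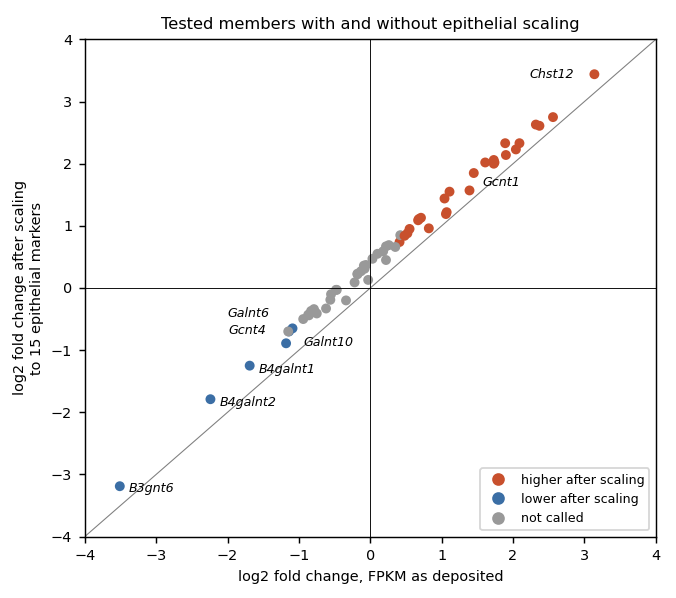
Log2 difference (Gm31629-/- minus WT) of the 62 tested members from FPKM as deposited (horizontal axis) against the same after scaling each library to 15 epithelial markers (vertical axis), with the line of equality in grey and colour for the call after scaling. All points shift upward, and B3gnt6 (-3.19), B4galnt2 (-1.79), B4galnt1 (-1.25), Gcnt4 (-0.89), Galnt6 (-0.70) and Galnt10 (-0.65) remain lower.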

How the data were processed

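RNA-Seq of colon from 3 Gm31629-/- and 3 WT mice was deposited as FPKM for 27546 genes, 1 column per mouse. The authors had divided fragments by gene length and library depth before deposit, and the submitters' processing notes name HISAT2 2.1.0, HTSeq 0.6.0 and GRCm38. The library kit does not mark strand. The methods speak of RNA pooled from 3 mice per genotype, whereas the labels and columns name single mice, which were used as replicates. No column held comparisons by the authors.

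Symbols, coordinates and exon lengths came from GENCODE M21 (27488 identifiers matched). Members were the rows whose symbol begins with 1 of the 13 family names and a digit, without pseudogenes. St6galnac1, B3gnt4 and Chst9 were not analysed here. The members and lists were chosen with earlier results of these data known. Fragments were recovered from FPKM, exon length and depth, and 96.3% to 97.3% of the low values (20 fragments or fewer) of a library came within 0.1 of a whole number. A listed 0 allows up to 3 fragments, and such limits cover counting error only.

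Genes with a mean of at least 0.5 FPKM (14657) were fitted on log2(FPKM + 1) without covariates by limma (version 3.58.1, run under R 4.3.3), using its eBayes step with a trend and Benjamini-Hochberg adjustment over all of them. A gene was called at an adjusted p under 0.05, and differences of scarce genes come out too small on this scale. The study's own test, DEGseq, needs counts and was not used. The scripts were tested on simulated data. Named members were the 10 highest and the 10 lowest called, all tested members with roles in cores, terminal GalNAc, fucose or St6galnac, the most abundant member of each other role, Muc2, and up to 4 of the most abundant genes of other lists, some of which are not reported here. Any other member given with values was picked with its values in view. The alternatives tried were no filter, a filter at a mean of 5 FPKM, a pseudocount of 0.1, a common library sum (TPM scale), median-ratio scaling, scaling to epithelial markers, eBayes without trend, a replicate block, voom on the recovered fragments, and leaving out each library.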

Additional observations from a re-analysis of the deposited data

How the results depend on the processing

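No called member was called in the opposite direction under any alternative, and the counts of 19 higher and 15 lower members stayed within 16 to 20 and 9 to 15 when 1 library was left out, the fewest without WT mouse 3. With a log2 difference beyond 1 those ranges were 14 to 17 and 5 to 8, and the members' median ranged from 0.04 to 0.23. Of the 34 calls, 23 held in all 6 such fits. Requiring a mean of at least 5 FPKM left 38 members, of which 6 were higher (5 with a log2 difference above 1) and 13 lower, with a median of -0.09, since fewer scarce members were tested. Median-ratio scaling gave 13 lower with a log2 difference below -1 and a median of -0.05. Epithelial scaling gave 6 lower, 3 of them below -1, and a median of 0.57. Voom on the recovered fragments gave 20 higher and 15 lower. The sign turned in 8 members after epithelial scaling and in 4 after median-ratio scaling, none of them called. Of the members named by rule it turned for B4galt7 (0.31), B4galnt3 (0.22), St6gal1 (0.23) and the short St6galnac2 model (0.13) after epithelial scaling, for Fut8 (-0.06) and St3gal4 (-0.04) after median-ratio scaling, and, with 1 library left out, for B4galnt3 (range -0.45 to 0.06), St6gal1 (-0.35 to 0.06), the short St6galnac2 model (-0.18 to 0.13) and St3gal4 (-0.12 to 0.47). The replicate block gave 21 higher and 13 lower members, losing B3gnt3 and Chst4. Mice with the same number did not deviate together (r = 0.036, -0.108 and 0.014), so the numbers do not pair them. FPKM values below the worth of a few fragments limit what can be said of the 28 untested members.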
